A study of Mus musculus with 167 samples.

Results

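The 33 genes described here are interferon-stimulated genes, which cells switch on after exposure to interferon and whose products block viral replication, mark or modify proteins, or feed back on the signal. They were taken by symbol from a list, and all 33 were found among the 57010 gene identifiers of the count table. The counts came from bulk RNA sequencing of mouse libraries in 41 groups of 3 to 5. The study forced sets of transcription factors into mouse embryonic fibroblasts (MEFs) with lentivirus and followed the cells toward a dendritic-cell state. The factor sets are named here as in the labels. PIB holds Spi1 (which encodes PU.1), Irf8 and Batf3, PIP holds Spi1, Irf4 and Prdm1, and SII holds Spib, Irf8 and Ikzf2.

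The fibroblasts came from 2 reporter lines. C9a MEFs were double homozygous for Clec9a Cre and a Rosa26 tdTomato reporter, so that tdTomato marks cells in which the promoter of Clec9a, a cDC1 surface receptor gene, has driven Cre. hCD2 MEFs were heterozygous for hCD2 Cre and a Rosa26 YFP reporter on a C57BL/6 background. PIB and PIP were given to C9a MEFs, and SII to both lines (C9a.SII and hCD2.SII). Transduced cells were sorted on day 3, 6 or 9 for the reporter, for CD45, the pan-leukocyte surface protein, or for both; cells with both are called double-positive. There were 37 PIB, 38 PIP, 38 C9a.SII and 35 hCD2.SII libraries. The starting MEFs of each line (n = 4 each) were sorted without reporter and CD45, and fibroblasts given a virus without factors were not analysed here, so in comparisons with MEFs the factors and the transduction cannot be told apart. Wildtype spleen gave cDC1 (n = 3), cDC2 (n = 3) and pDC (n = 5), the conventional dendritic cells of type 1 and 2 and the plasmacytoid dendritic cells. The labels do not say whether replicates were separate cultures or animals, so p-values measure the spread between these libraries only.

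Type I interferon binds the receptor made of IFNAR1 and IFNAR2, and the kinases JAK1 and TYK2 then phosphorylate STAT2. STAT2 and IRF9 are subunits of the complex ISGF3, which binds the interferon-stimulated response element (ISRE) in the promoters of interferon-stimulated genes. PU.1 and Spi-B bind a related composite element, the EICE, together with IRF4 or IRF8, so the transduced factors and ISGF3 recognise partly similar letters. Plasmacytoid dendritic cells are known for making large amounts of type I interferon.

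The promoters of 5 members are shown because the results below turn on these genes: Ifit1, Ifit3 and Ifit3b fell in PIB, PIP and C9a.SII cells, Ifit2 beside them rose in PIB and PIP cells, and Isg15 fell in PIB and C9a.SII cells but not in PIP cells. Each sequence is the 200 bases upstream of the RefSeq start (GRCm38.p6), read 5′ to 3′ on the gene's strand, and capitals mark matches to the letters searched for the ISRE on both strands, which are GAAA, then 2 bases of any kind, then GAAA. Their positions are chr19:34640689-34640888 (plus strand) for Ifit1, chr19:34583329-34583528 (plus) for Ifit3, chr19:34607757-34607956 (plus) for Ifit3b, chr19:34550494-34550693 (plus) for Ifit2 and chr4:156200819-156201018 (minus) for Isg15.
Ifit1: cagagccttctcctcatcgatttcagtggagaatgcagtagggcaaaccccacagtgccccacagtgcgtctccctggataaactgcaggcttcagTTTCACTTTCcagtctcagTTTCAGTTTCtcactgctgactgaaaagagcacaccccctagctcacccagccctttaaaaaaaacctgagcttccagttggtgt
Ifit3: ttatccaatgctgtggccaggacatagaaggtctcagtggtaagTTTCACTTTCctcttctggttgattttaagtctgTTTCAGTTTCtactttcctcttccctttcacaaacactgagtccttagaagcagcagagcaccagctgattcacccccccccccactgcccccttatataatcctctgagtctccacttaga
Ifit3b: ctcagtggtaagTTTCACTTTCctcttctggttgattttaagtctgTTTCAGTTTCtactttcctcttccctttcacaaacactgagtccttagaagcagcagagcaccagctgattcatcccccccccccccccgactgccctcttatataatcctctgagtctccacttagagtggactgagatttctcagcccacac
Ifit2: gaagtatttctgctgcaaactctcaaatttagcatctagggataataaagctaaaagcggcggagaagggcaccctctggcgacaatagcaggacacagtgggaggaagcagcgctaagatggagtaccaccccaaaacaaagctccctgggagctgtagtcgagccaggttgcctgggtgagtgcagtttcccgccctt
Isg15: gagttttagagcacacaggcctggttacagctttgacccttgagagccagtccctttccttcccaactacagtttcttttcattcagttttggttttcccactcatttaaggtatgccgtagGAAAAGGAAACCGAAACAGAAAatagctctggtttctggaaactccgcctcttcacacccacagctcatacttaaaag

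Ifit1, Ifit3 and Ifit3b each held 2 matches, Isg15 held 3, each overlapping the next, and the Ifit2 window shown held none. Ifit2 has another RefSeq start, whose window (chr19:34550838-34551137) is not shown and held none either. The Ifit3 and Ifit3b windows were 82.1% identical over 168 bases aligned without gaps. Differences in length within the windows lower this value. RefSeq windows from 250 bases before to 50 after the start were found for 25 of the 33 members. Of these, 11 held an ISRE match (Ifit1, Ifit3, Ifit3b, Isg15, Oas1a, Oas3, Trim30a, Ddx60, Stat2, Rsad2 and Eif2ak2), against 3.99% of all genes with a window. The letters searched for the EICE, GGAA, then 2 bases of any kind, then GAAA, were found in 4 members (Ifi44, Stat2, Epsti1 and Dtx3l), against 3.16% of all genes. These 4 genes are described with the others below, and a match is only a match of letters.

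Total counts ran from 1146927 to 21976374 (median 10960122), so that 3 counts correspond to 0.137 to 2.62 CPM, the unit of the levels below, in which every library's counts are scaled to the same total. The lowest total was that of double-positive C9a.SII day 9 replicate 1, where a single read is worth 0.872 CPM. In 3 libraries, replicate 4 of PIB day 6 tdTomato+, replicate 5 of PIP day 3 tdTomato+ and replicate 5 of C9a.SII day 6 tdTomato+, the transduced factors were those of another set than the label's; they enter only the fit over all groups. Libraries that stood apart within the groups tested below were double-positive PIP day 3 replicate 3, C9a.SII day 3 replicate 2, C9a.SII day 9 replicate 1 and hCD2.SII day 9 replicate 1, and pDC replicate 1. Counts that move by over 1.5 times without one of them are given with and without it. PIP day 6 replicate 4 also stood apart and, of the tests between groups, enters only the fit over all groups. A gene is said to have risen or fallen where edgeR's quasi-likelihood test gave an adjusted p (Benjamini-Hochberg) below 0.05 together with a 2-fold or larger change; fold changes are log2 values with their standard error. PIB, PIP and C9a.SII cells were compared with the same 4 C9a MEF libraries.

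The starting fibroblasts already carried this programme at similar levels in both lines. The 33 genes together took 3445 to 3567 CPM in C9a MEFs and 3166 to 3843 CPM in hCD2 MEFs, ranges that overlap. Of 32 members tested between the lines, only Ifi27l2a, which encodes a small interferon-induced mitochondrial protein, passed the threshold, and 7 others had an adjusted p below 0.05 with less than a 2-fold change. It had 13.2, 13.2, 13.7 and 15.2 CPM in the C9a line and 6.84, 3.65, 5.74 and 5.55 CPM in the hCD2 line. The lines did not overlap, and the hCD2 line was lower by a log2 fold change of -1.32 ± 0.15 (edgeR adjusted p = 9.5e-06; 1.5% of all genes fell and 1.43% rose in this comparison). That call was lost in a fit over all groups (adjusted p = 0.411). No member rose, by edgeR or by DESeq2, and 12 reached an unadjusted p under 0.05, 7 of them higher and 5 lower in the hCD2 line. Epsti1 was at 0.446 to 1.29 CPM in C9a MEFs and at 0.353 to 0.892 CPM in hCD2 MEFs and was too low to be tested between them.

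Against these fibroblasts the factor sets differed. In double-positive cells on day 9, PIP raised 12 members and lowered 3, PIB raised 4 and lowered 12, and C9a.SII raised 1 and lowered 27. Over all genes tested, 15.2% rose and 14.5% fell with PIP, 10.4% rose and 11.4% fell with PIB, and 10.5% rose and 10.9% fell with C9a.SII. The median log2 change of the members was 0.69 in PIP, -0.28 in PIB and -2.28 in C9a.SII cells, beside 0.05 (PIP), -0.00 (PIB) and 0.03 (C9a.SII) over all genes. The members' share exceeded that of all genes for the rises in PIP and the falls in PIB and C9a.SII. Their share was near or below it for the rises in PIB and C9a.SII and the falls in PIP.

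On day 3 the medians were 0.56 in PIP, 0.03 in PIB, -1.82 in C9a.SII and -2.06 in hCD2.SII cells, so that the PIB median was near 0 on day 3. PIP raised 9 members and lowered 5 (10.6% and 11.1% of all genes), PIB raised 5 and lowered 8 (11.9% and 10.9%), C9a.SII raised 1 and lowered 23 (8.84% and 8.71%), and hCD2.SII, measured against its own MEF line, raised 2 and lowered 22 (10.8% and 13.3%). Without PIP day 3 replicate 3, PIP raised 15 and lowered 5 on day 3 (12.5% and 14.9% of all genes), and without C9a.SII day 3 replicate 2, the same 23 members fell in C9a.SII. Of the 23 members that fell in C9a.SII and the 22 that fell in hCD2.SII on day 3, 21 were shared, which is 91.3% and 95.5% of each list. Mx2 and Usp18 fell in C9a.SII alone and Mx1 in hCD2.SII alone, and the difference between the lines was not past the threshold for any of them.

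**Figure D1:**
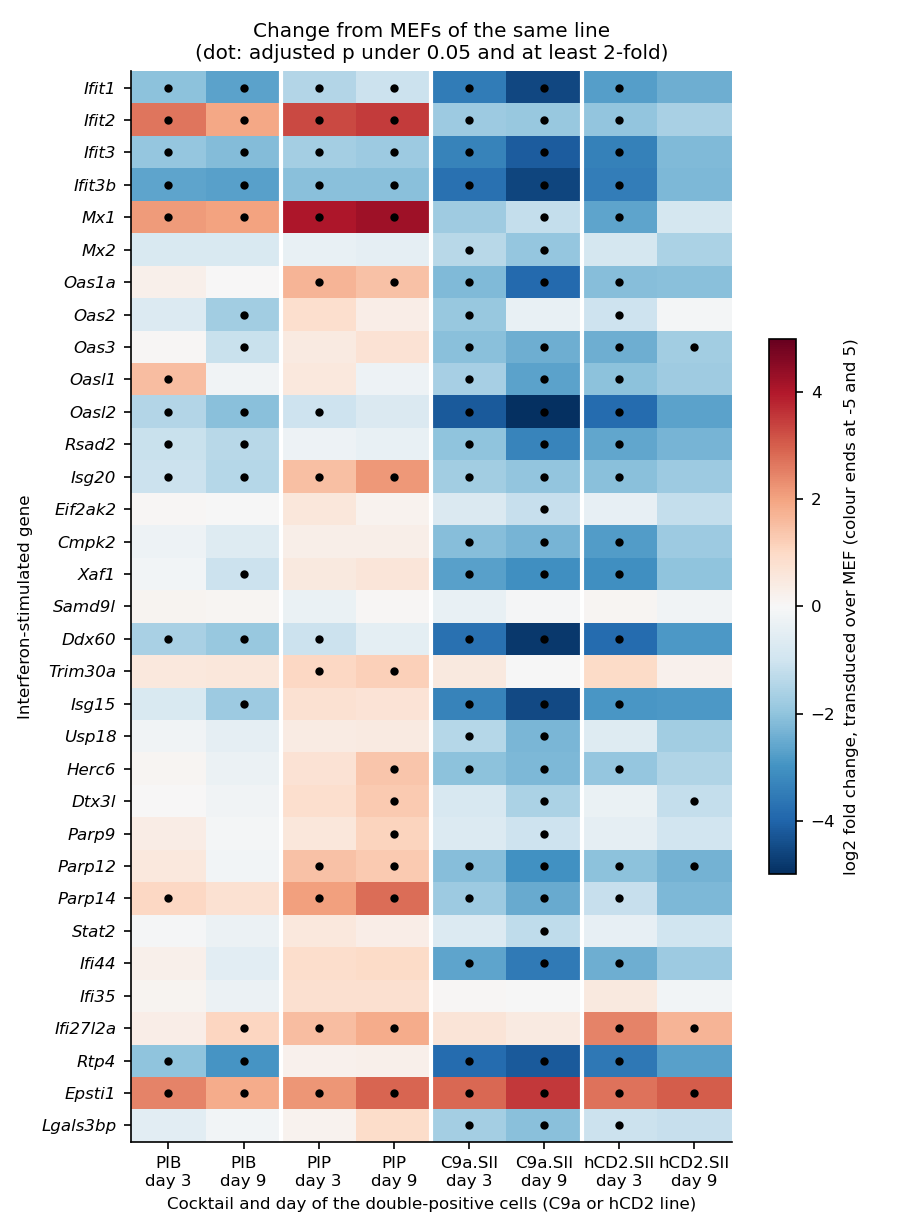
Log2 fold change of the 33 members (rows, grouped by role) in double-positive cells of each factor set on day 3 and day 9 against MEFs of the same line (columns); colour is the log2 fold change and a dot marks members that rose or fell. The SII columns are almost wholly on the lower side, from -5.80 for Oasl2, while Ifit2, Mx1 and Epsti1 stand on the higher side in PIB and PIP.

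The IFIT proteins bind viral RNA and block its translation. Their 4 genes among the members lie in the order Ifit2, Ifit3, Ifit3b and Ifit1 within 99.3 kb of chromosome 19 (34550694 to 34650009, GRCm38), yet in PIB and PIP cells Ifit2 rose while the other 3 fell. Ifit2 was at 77.9, 80.6, 84.9 and 68.6 CPM in C9a MEFs, at 254, 285, 300, 263 and 311 CPM in PIB cells on day 9, and at 763, 825, 653 and 785 CPM in PIP cells. Every PIP library lay above every PIB library and every PIB library above the MEFs. The log2 changes against MEFs were 1.92 ± 0.07 for PIB (adjusted p = 9.0e-11) and 3.50 ± 0.08 for PIP (adjusted p = 3.2e-15), both by edgeR. In C9a.SII cells Ifit2 had 20.9, 17.9, 24.3 and 17.7 CPM, all below the MEFs, and fell by 1.88 ± 0.15.

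Ifit1 was instead highest in the MEFs. It had 269, 259, 283 and 281 CPM in C9a MEFs, 41.3, 48.5, 41.9, 38.6 and 35.4 CPM in PIB, 119.2, 115.4, 92.4 and 119.4 CPM in PIP, and 4.36, 7.35, 22.3 and 6.10 CPM in C9a.SII cells on day 9. The 4 groups did not overlap, and their order was MEF, PIP, PIB, C9a.SII. Ifit1 fell by 1.06 ± 0.07 in PIP, 2.66 ± 0.09 in PIB and 4.57 ± 0.51 in C9a.SII cells. The PIP value lay near the 2-fold limit: it was -0.99 without PIP replicate 3, and in a fit over all groups the adjusted p was 0.179. Ifit3 had 329 to 347 CPM in C9a MEFs, 97.1, 75.6, 83.6 and 68.9 CPM in PIP, 63.8 to 87.3 CPM in PIB, and 15.7, 14.6, 29.5 and 10.7 CPM in C9a.SII cells. PIP and PIB overlapped here, and both lay below the MEFs (-1.83 ± 0.12 and -2.15 ± 0.08). Ifit3b fell by 2.10 ± 0.08, 2.73 ± 0.12 and 4.60 ± 0.30 in PIP, PIB and C9a.SII cells. Ifit3 and Ifit3b share 100-base words over 31.7% and 27.4% of their transcripts, so reads may have been split between them; Ifit2 shares none with any gene.

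**Figure D2:**
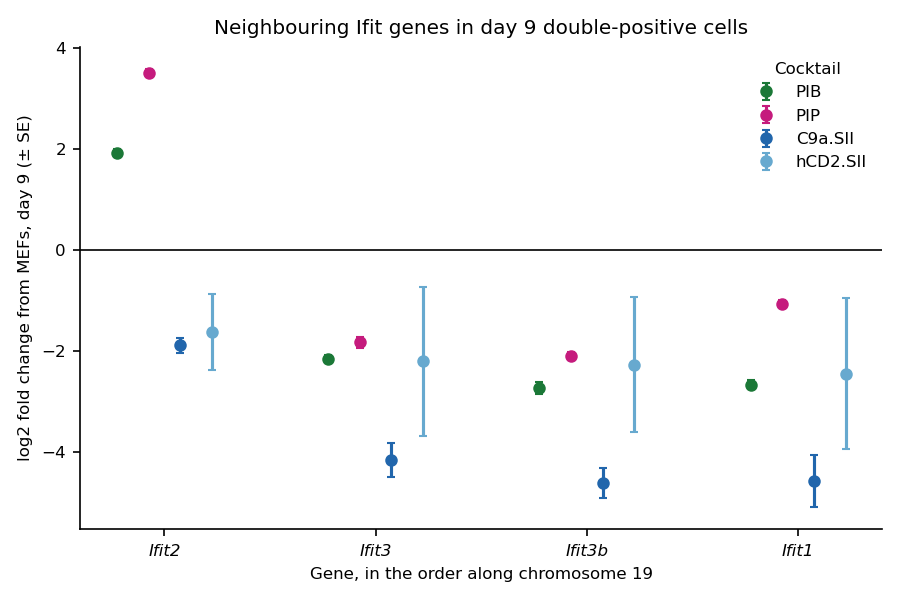
Log2 fold change against MEFs of the same line on day 9 (vertical axis, bars are standard errors) for the 4 Ifit members in their order along the chromosome (horizontal axis), one series per factor set. Ifit2 is at 1.92 in PIB and 3.50 in PIP while its neighbours are below 0 in both; all 4 are below 0 in C9a.SII.

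Mx1 and Mx2 encode dynamin-like GTPases that trap viral particles. Mx1 had 8.39, 5.71, 6.34 and 4.24 CPM in C9a MEFs, 18.7, 20.6, 24.7, 27.5 and 26.8 CPM in PIB, and 81.99, 94.5, 103.7 and 112.8 CPM in PIP cells on day 9. Both sets lay above the MEFs with no overlap, PIP above PIB. The log2 changes were 2.00 ± 0.17 in PIB (adjusted p = 4.8e-07) and 4.23 ± 0.16 in PIP (adjusted p = 2.1e-09). C9a.SII cells had 6.98, 2.27, 2.57 and 1.71 CPM; the first is the library of lowest depth and overlaps the MEFs, and the fall of 1.21 ± 0.38 was lost under 6 of the other settings. Mx2 did not pass the threshold in PIB (-0.75 ± 0.09) or PIP (-0.44 ± 0.08) and fell in C9a.SII (-1.94 ± 0.11); its annotation is that of a polymorphic pseudogene.

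The OAS genes encode enzymes that sense double-stranded RNA and activate RNase L, and Oasl1 and Oasl2 encode relatives of these enzymes. Oasl2 had the deepest fall of all members in C9a.SII: 248, 247, 264 and 259 CPM in C9a MEFs became 1.74, 5.40, 4.79 and 3.86 CPM on day 9. The groups were far apart (-5.80 ± 0.17, adjusted p = 1.9e-09). In PIB cells Oasl2 had 52.6 to 61.98 CPM (-2.09 ± 0.05), and in PIP cells 127.2 to 140.4 CPM (-0.70 ± 0.05, short of 2-fold). Oas1a differed between the sets. Its MEF level of 28.8 to 36.9 CPM was 26.4 to 35.3 CPM in PIB (0.01 ± 0.09), 64.3 to 87.1 CPM in PIP, where it rose by 1.45 ± 0.08, and 0.872 to 2.59 CPM in C9a.SII, where it fell by 3.89 ± 0.17. Oas1a shares 40.9% of its 100-base words with Oas1g, so its reads are uncertain.

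Oas2 followed none of these patterns. It fell in PIB cells by 1.76 ± 0.16, to 8.08 to 16.7 CPM from 34.5 to 42.7 CPM in MEFs, and had 38.5 to 47.2 CPM in PIP. In double-positive C9a.SII cells it had 9.32, 12.1, 10.3 and 8.2 CPM on day 3 (-1.88 ± 0.16) and 11.3, 34.7, 32.7 and 27.3 CPM on day 9, where it was no longer below the threshold (-0.36 ± 0.18). On day 9 only replicate 1, the library of lowest depth, stayed near the day 3 level. Oas3 fell in PIB (-1.09 ± 0.14) and C9a.SII (-2.44 ± 0.21). Oasl1 rose in PIB on day 3 (1.53 ± 0.09) and fell in C9a.SII on day 9 (-2.67 ± 0.35).

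**Figure D3:**
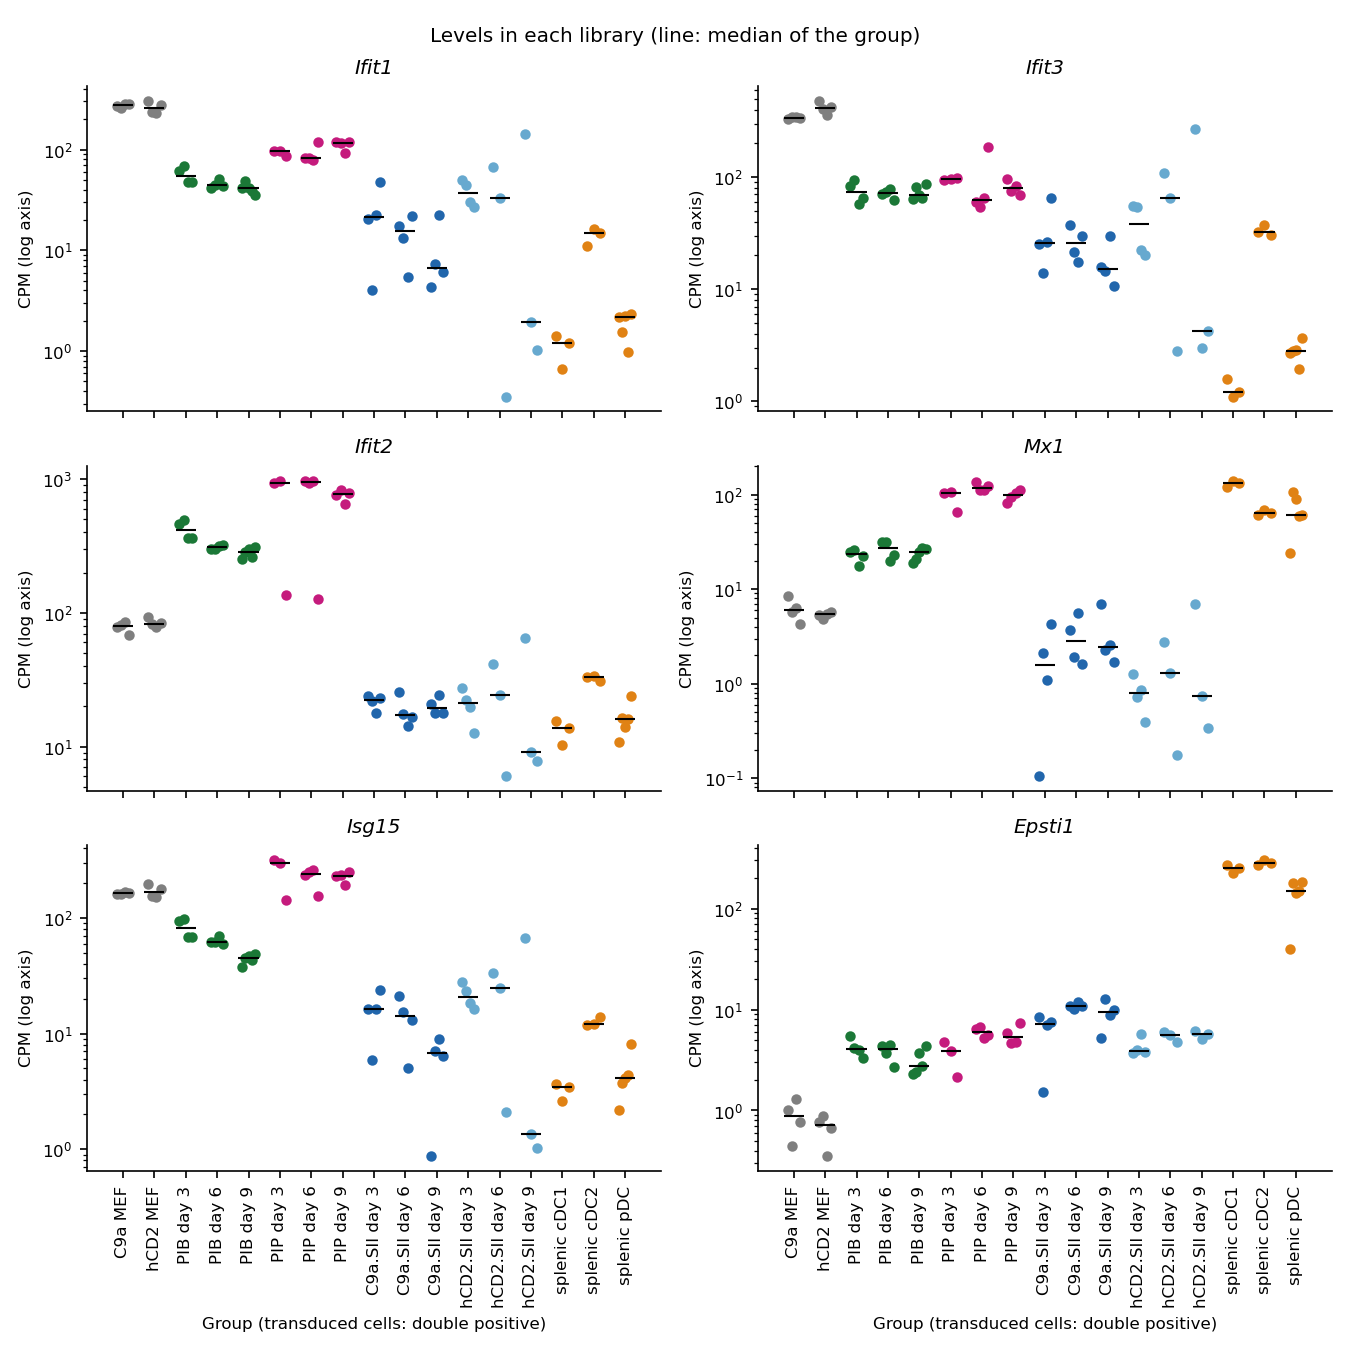
CPM of Ifit1, Ifit3, Ifit2, Mx1, Isg15 and Epsti1 in each library (points, log axis) of MEFs, of double-positive cells on days 3, 6 and 9, and of splenic dendritic cells. On day 9 the PIP libraries of Ifit2 are at 653 to 825 CPM against 17.7 to 24.3 CPM in C9a.SII, while for Epsti1 all induced cells on day 9 stay at or under 12.6 CPM and cDC1 and cDC2 reach 224 to 302 CPM.

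Among the other antiviral effectors, Rsad2 (viperin, which makes a chain-terminating nucleotide) fell in PIB (-1.40 ± 0.15) and C9a.SII (-3.30 ± 0.15), and had -0.35 ± 0.09 in PIP. Isg20, an RNA exonuclease, rose in PIP to 17.2 to 20.5 CPM from 4.16 to 5.53 CPM in MEFs (2.16 ± 0.12) and fell in PIB to 1.35 to 2.06 CPM (-1.42 ± 0.19); the 3 groups did not overlap. Ddx60, a helicase, fell in PIB (-1.89 ± 0.13) and C9a.SII (-4.82 ± 0.22). Xaf1, which favours apoptosis, fell by 3.05 ± 0.26 in hCD2.SII on day 3 and by 3.07 ± 0.13 in C9a.SII on day 9, and its fall of 1.09 ± 0.07 in PIB lost the call in the fit over all groups alone (log2 change -1.08, adjusted p = 0.0876). Eif2ak2, which encodes the kinase PKR, and Cmpk2, the neighbour of Rsad2, fell in C9a.SII by 1.15 ± 0.11 and 2.33 ± 0.18. Samd9l and Trim30a did not pass the threshold in C9a.SII: Samd9l had 104.9 to 114.2 CPM in C9a MEFs and 81.1 to 108.8 CPM in C9a.SII, and Trim30a had 116.6 to 125.3 CPM in C9a MEFs and 54.1, 137.97, 109.1 and 141.4 CPM in C9a.SII. Trim30a rose in PIP (1.17 ± 0.05).

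Isg15 encodes a ubiquitin-like protein that is attached to other proteins, Herc6 the mouse ligase that attaches it, and Usp18 the protease that removes it and restrains the receptor. Isg15 had 160.5, 159.7, 168 and 165.4 CPM in C9a MEFs, 37.7 to 48.7 CPM in PIB, 230, 233, 191 and 248 CPM in PIP, and 0.872, 7.13, 8.99 and 6.43 CPM in C9a.SII cells on day 9. PIP lay above and PIB and C9a.SII below the MEFs, with no overlap between any of these groups. The falls in PIB (-1.82 ± 0.06) and C9a.SII (-4.53 ± 0.26) passed the threshold, and the PIP value of 0.69 ± 0.06 was under 2-fold. Herc6 rose in PIP (1.38 ± 0.05) and fell in C9a.SII (-2.24 ± 0.22). Usp18 fell in C9a.SII, from 130.3 to 144.8 CPM down to 23.99 to 35.7 CPM (-2.28 ± 0.17).

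The PARP members encode ADP-ribosyltransferases, and Dtx3l the ubiquitin ligase that pairs with PARP9. All 4 genes rose in PIP on day 9: Parp14 by 2.78 ± 0.07, Parp12 by 1.32 ± 0.06, Dtx3l by 1.29 ± 0.06 and Parp9 by 1.13 ± 0.05. All 4 fell in C9a.SII, by 2.53 ± 0.09 for Parp14 and 3.04 ± 0.12 for Parp12. Parp14 had 110.6, 109.1, 93.9 and 105.7 CPM in C9a MEFs, 603, 660, 513 and 699 CPM in PIP, and 17.4, 17.6, 16.9 and 17.5 CPM in C9a.SII cells. The 3 groups did not overlap. In PIB none of the 4 passed the threshold on day 9. Parp9 overlaps Dtx3l and an opposite-strand gene, and the strand setting of the counting is not known, so its reads are uncertain.

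Stat2, the member that is itself a subunit of ISGF3, had 249, 254, 265 and 243 CPM in C9a MEFs and 102.01, 98.4, 93.6 and 94.4 CPM in C9a.SII on day 9. These did not overlap (-1.28 ± 0.10), while PIB (-0.28 ± 0.07) and PIP (0.33 ± 0.05) were under 2-fold. Rtp4, which encodes a receptor-transporting protein, had 56.1 to 60.9 CPM in C9a MEFs and 56.9 to 62.9 CPM in PIP, which overlapped, but 5.81 to 8.03 CPM in PIB (-2.97 ± 0.09) and 2.48 to 3.77 CPM in C9a.SII (-4.18 ± 0.14). Ifi44 fell in C9a.SII (-3.55 ± 0.15) and Lgals3bp, a secreted glycoprotein, fell too (-2.08 ± 0.26). Ifi35 did not pass the threshold in any of the 4 day 9 comparisons with MEFs. Ifi27l2a rose in PIP (1.84 ± 0.13) and in PIB (1.06 ± 0.10), the latter call being lost without PIB replicate 5 (0.984).

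Epsti1, named for its induction in epithelial cells by stroma, was low in MEFs and higher in the double-positive cells of every factor set on days 3 and 9. It had 1.00, 0.446, 1.29 and 0.771 CPM in C9a MEFs and 2.31 to 4.35 CPM in PIB, 4.66 to 7.30 CPM in PIP and 5.23, 12.6, 8.82 and 9.96 CPM in C9a.SII on day 9. All of these libraries exceeded all C9a MEF libraries. In hCD2.SII it had 6.16, 5.08 and 5.78 CPM, above the 0.353 to 0.892 CPM of hCD2 MEFs. The fitted log2 changes were 1.86 ± 0.31, 2.90 ± 0.27 and 3.52 ± 0.29, and 3.04 ± 0.32 in hCD2.SII. The gene entered these tests through the induced cells alone, since it was too low to be tested between the MEF lines, so its calls are a description.

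Members were also counted by ISRE match. Of the 11 with a match, 7 fell and 0 rose in PIB on day 9 (median -1.40), and of the 14 without one, 3 fell and 2 rose (median -0.23). In PIP, 3 of the 11 fell and 2 rose (median 0.17), and 6 of the 14 rose and 0 fell (median 0.94). In C9a.SII, 10 of the 11 fell (median -3.89) and 11 of the 14 fell (median -2.16), and in hCD2.SII, with all libraries, 1 and 2 fell. Without hCD2.SII day 9 replicate 1, the same 27 members fell as in C9a.SII, so the counts were again 10 and 11. Over all genes tested, 10.4% rose and 11.4% fell in PIB, and 15.2% and 14.5% in PIP. In C9a.SII 10.5% rose and 10.9% fell, and in hCD2.SII, with all libraries, 10.8% and 8.41%. Of the 8 members with no window found, 2 rose and 2 fell in PIB, 4 rose and 0 fell in PIP, and 6 fell in C9a.SII. Ifit3 and Ifit3b, with closely similar windows, count as separate members, and the difference between members with and without a match was not tested.

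On day 9, double-positive hCD2.SII replicate 1 differed from replicates 2 and 3. The 33 genes summed to 2608 CPM in replicate 1 and to 595 and 542 CPM in replicates 2 and 3. Ifit1 had 141.9, 1.94 and 1.02 CPM, Oasl2 118.8, 1.79 and 2.04 CPM, and Isg15 67.2, 1.35 and 1.02 CPM. With all 3 libraries, 3 members fell and 2 rose against hCD2 MEFs (8.41% and 10.8% of all genes; median -1.75), and without replicate 1, 27 fell and 2 rose (15.6% and 17.3% of all genes; median -3.57). These 27 were the 27 that fell in C9a.SII on day 9. Ifit1 then had a log2 change of -7.50, Isg15 -7.21, Oasl2 -7.17 and Ddx60 -7.02. Replicate 1 also had more of 6 fibroblast genes (6419 against 591 and 532 CPM in sum), less Ptprc, which encodes CD45 (71.2 against 229 and 271 CPM), and less Spib (53.8 against 147.3 and 175 CPM); the part of these in the result was not tested. In bulk libraries fewer cells of a type and less RNA per cell cannot be told apart. Low and high sums of the 33 genes also occurred in other hCD2.SII groups. On day 6, double-positive replicate 3 had 714 CPM against 1718 and 1475 CPM. CD45+ replicate 4 of that day had 693 against 1733 to 1943 CPM, and YFP+ replicate 4 had 741 against 2209 to 2724 CPM. On day 9, CD45+ replicate 1 had 1637 CPM against 677 and 689 CPM. Every count given without double-positive replicate 1 of day 9 thus rests on libraries with low sums in that group.

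Among the sets given to C9a MEFs, the order by those 6 fibroblast genes was not the order by the 33 members. The fibroblast genes summed to 13374 to 14519 CPM in C9a MEFs, and on day 9 to 883 to 1167 CPM in PIP, 1383 to 2115 CPM in C9a.SII and 5547 to 7028 CPM in PIB. PIP, with the least, had the highest sum of the 33 members, 4565 to 5621 CPM, against 2277 to 2783 CPM in PIB and 616 to 945 CPM in C9a.SII. Within hCD2.SII on day 9 both sums went together. Double-positive replicates 1, 2 and 3 had 6419, 591 and 532 CPM of the fibroblast genes. Their sums of the members were 2608, 595 and 542 CPM. The part of fibroblast content in the members' levels was not tested. All 5 leukocyte genes of a marker list rose with each set against MEFs on day 9. Among them, Ptprc encodes CD45, for which these cells were sorted, while the MEFs were sorted without CD45. How far these gates set the rise of Ptprc was not tested. On day 9, cells sorted for the reporter alone had 2.23 to 11.8 CPM of Ptprc in PIB. They had 1.16 to 2.697 CPM in PIP and 2.35 to 4.09 CPM in C9a.SII, against 0.154 to 0.368 CPM in C9a MEFs. Double-positive cells had 170.8 to 292.8 CPM in PIB, 58.46 to 98.92 CPM in PIP and 119.8 to 173.5 CPM in C9a.SII.

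Over time few members passed the threshold between the first and the last day. Between day 3 and day 9, no member of PIP or of C9a.SII double-positive cells rose or fell by edgeR, with 9 and 7 members at an unadjusted p under 0.05; DESeq2 called 0 in PIP and 1 in C9a.SII. Without PIP day 3 replicate 3, Oasl1 alone fell in PIP (-1.15; 3.05% of all genes). Over all genes 3.25% rose and 2.95% fell in PIP, and 0.0965% rose and 0.00643% fell in C9a.SII. Double-positive C9a.SII day 3 replicate 2 had a summed level of 461 CPM against 1136 to 1751 CPM in the others and 1.52 CPM of Ptprc against 114.8 to 334 CPM. Without it, Oas2 rose and 6 members (Oas1a, Oasl2, Rsad2, Usp18, Dtx3l and Parp12) fell from day 3 to day 9 (1.12% and 0.442% of all genes). Without day 9 replicate 1, Oas2 alone rose and 0 fell. In PIB, 4 members fell and 0 rose (8.47% and 3.67% of all genes; 0 rose by DESeq2 too, and 2 of the 23 at an unadjusted p under 0.05 were higher). Oasl1, at 45.9, 41.2, 26.97 and 30.8 CPM on day 3 and 10.8 to 13.8 CPM on day 9, fell by 1.75 ± 0.11 with no overlap. Oas3 fell by 1.18 ± 0.16, Isg15 by 1.095 ± 0.08 and Oas2 by 1.08 ± 0.17, all 3 losing the call in the fit over all groups (-1.01, -0.92 and -0.91), and Isg15 and Oas2 also with no low-count filter. In hCD2.SII none of 31 members tested changed (4.48% of all genes rose and 2.07% fell; 2 at an unadjusted p under 0.05, 0 by DESeq2), and without day 9 replicate 1, 22 fell (6.26% of all genes).

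Within PIP a few libraries stood apart in the members at once. On day 6 double-positive replicate 4 summed to 4108 CPM against 5654 to 5948 CPM in the others. Ifit2 was at 127.5 CPM there against 936 to 977 CPM, while Mx1 was at 124.2 CPM within the others' 111.4 to 135.7 CPM, and Ifit3 was higher, at 187 against 54.1 to 64.96 CPM. Parp14 had 357 against 759 to 806 CPM. On day 3, double-positive replicate 3 had 135.6 CPM of Ifit2 against 943 and 972 CPM, and 98.6 CPM of Ifit3 against 94.9 and 97.1 CPM. Both libraries had more of the fibroblast genes (3943 against 1100 to 1249 CPM on day 6, and 3804 against 2192 and 2253 CPM on day 3), and less Ifnb1 (4.53 against 17.1 to 21.4 CPM, and 3.07 against 6.86 and 8.11 CPM); their part was not tested. Ptprc was lower in the day 3 library, at 14.1 CPM against 84.4 and 82.6 CPM, which goes against its CD45+ gate, and was 118.3 CPM against 94.5 to 104.2 CPM in the day 6 library.

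Between factor sets on day 9, 22 members were lower in PIB than in PIP and 0 higher (11% and 10.6% of all genes; DESeq2 counted 22 and 0, and none of 30 at an unadjusted p under 0.05 was higher). The largest differences were in Isg20 (-3.55 ± 0.13), Rtp4 (-3.19 ± 0.09), Isg15 (-2.49 ± 0.08) and Mx1 (-2.20 ± 0.11). Ifit3 (-0.30 ± 0.12), Oasl1 (0.09 ± 0.11) and Samd9l (0.06 ± 0.09) did not pass the threshold. Against C9a.SII, 29 members were higher in PIP and 0 lower (10.9% and 11.5% of all genes; 1 of 32 at an unadjusted p under 0.05 was lower, and DESeq2 counted 29 and 0), led by Mx1 (5.45 ± 0.31), Ifit2 (5.35 ± 0.17), Oas1a (5.34 ± 0.17) and Parp14 (5.29 ± 0.12). PIB had 24 higher and 2 lower than C9a.SII (8.57% and 9.92% of all genes), with Oas1a (3.91 ± 0.17) and Ifit2 (3.78 ± 0.15) highest. The 2 lower were Epsti1 (-1.64 ± 0.23) and Oas2 (-1.37 ± 0.24).

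Sorting for CD45 in addition to the reporter moved no member past the threshold in 3 of the 4 sets. Double-positive against reporter-positive cells of day 9 gave 0 members for PIB, PIP or C9a.SII by edgeR and by DESeq2, with 11, 4 and 1 at an unadjusted p under 0.05. Over all genes 0.94% rose and 0.762% fell in PIB, 0.0122% and 0% in PIP, and 0.115% and 0.0321% in C9a.SII. The hCD2.SII line differed in its gates: YFP+ libraries summed to 3026 to 3123 CPM over the 33 genes, near the 3166 to 3843 CPM of hCD2 MEFs, against 542 to 2608 CPM in YFP+CD45+ cells. With all libraries only Oas3 was lower in double-positive cells (4.13% of all genes lower and 8.08% higher), and without replicate 1, 28 members were (13.8% and 15%). The YFP+ libraries of day 9 had 0.450 to 0.626 CPM of Ptprc, 11.7 to 12.4 CPM of Spib and 8175 to 9078 CPM of the fibroblast genes. The part of these in the difference was not tested.

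**Figure D4:**
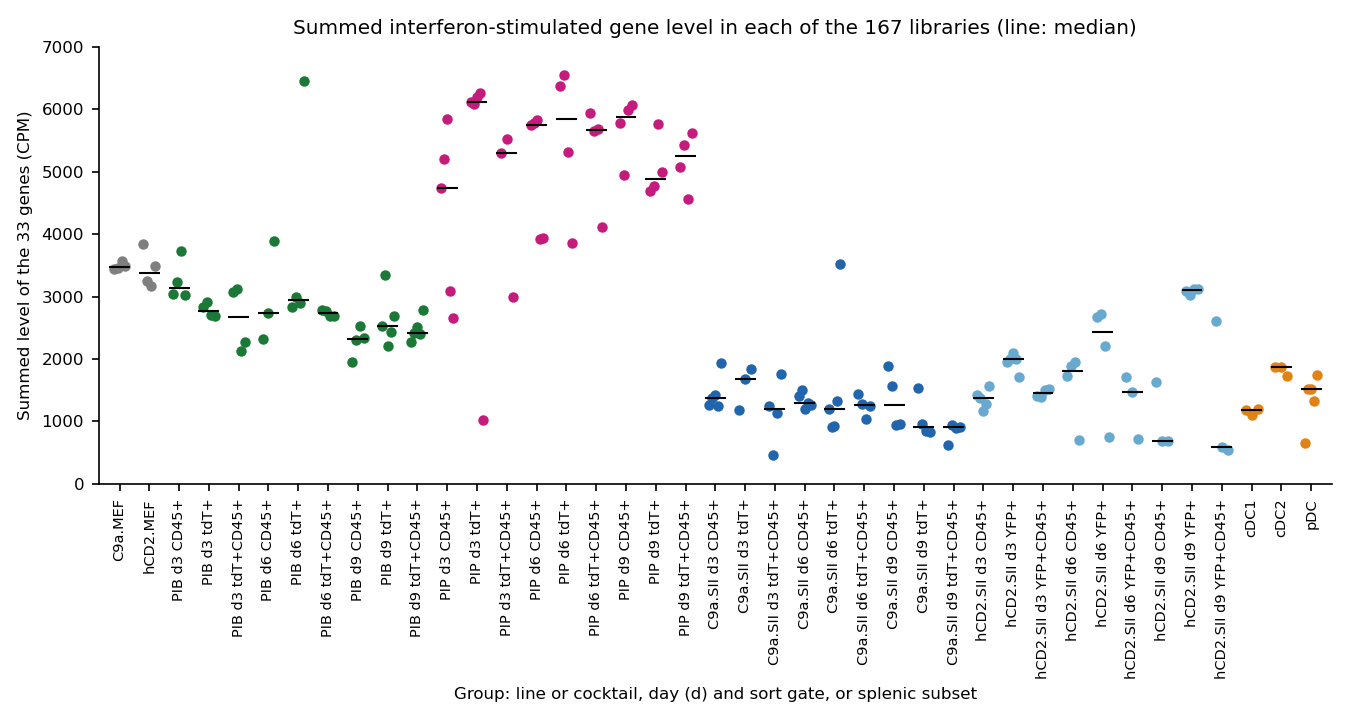
Sum of the CPM of the 33 members in each library (points) for all 41 groups, by factor set, day and gate. PIP groups lie mostly above the MEFs, C9a.SII groups below, and single libraries far from their group are visible, such as hCD2.SII day 9 YFP+CD45+ replicate 1 at 2608 CPM beside 595 and 542 CPM. Points at 6448 (PIB day 6 tdTomato+), 1016 (PIP day 3 tdTomato+) and 3528 CPM (C9a.SII day 6 tdTomato+) are libraries whose transduced factors contradict their label.

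The change with SII was compared between the 2 lines as an interaction, the C9a.SII change minus the hCD2.SII change. On day 3 and on day 9 no member passed the threshold by edgeR or DESeq2, with 2 at an unadjusted p under 0.05 on each day (0.3% of all genes higher and 0.247% lower on day 3, 0.18% and 0.388% on day 9). Without hCD2.SII day 9 replicate 1, 15 members passed, all with the smaller fall in C9a.SII (3.19% of all genes). Without C9a.SII day 3 replicate 2, Ifi27l2a alone passed on day 3 (-1.47; 0.366% of all genes). On day 9 without the hCD2.SII library, Ifit1 differed by 2.88, Ifit3 by 2.69 and Isg15 by 2.63.

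Splenic dendritic cells held fewer counts of these genes than MEFs: 1098 to 1194 CPM in cDC1, 1723 to 1877 CPM in cDC2 and 649 to 1747 CPM in pDC. PIB cells on day 9 had 20 members higher and 2 lower than cDC1 (25.4% and 32.2% of all genes). Ifit1 was at 1.42, 0.659 and 1.21 CPM in cDC1, below every PIB library (5.46 ± 0.23). The 2 lower were Epsti1 (271, 224 and 253 CPM in cDC1; -6.04 ± 0.15) and Mx1 (120.7, 140.7 and 133.9 CPM in cDC1; -2.18 ± 0.11). PIP cells had 20 members higher and 1 lower than cDC2 (29.3% and 26.7% of all genes). Ifi44 was at 1.77, 1.35 and 2.17 CPM in cDC2 and 143.8, 156.6, 140.1 and 154.04 CPM in PIP, with no overlap (6.52 ± 0.14). Ifit2 (4.71 ± 0.10), Lgals3bp (4.57 ± 0.12) and Isg15 (4.31 ± 0.12) followed, and Epsti1 was again lower (-5.50 ± 0.12). Rtp4, Oas2 and Oas3 had 0.87 ± 0.10, 0.04 ± 0.11 and 0.02 ± 0.13 between PIP and cDC2.

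C9a.SII cells had 7 members higher and 15 lower than pDC (18.4% and 19.7% of all genes). Mx1 (-4.41 ± 0.50), Epsti1 (-3.73 ± 0.43), Oasl2 (-3.28 ± 0.32) and Oasl1 (-2.67 ± 0.45) were lower. Oas2 (3.80 ± 0.56), Ifit3b (3.64 ± 0.85), Ifit3 (2.79 ± 0.38) and Ifit1 (2.62 ± 0.55) were higher, although all 4 pDC levels were small: Ifit1 had 0.967 to 2.34 CPM and Ifit3b 0 to 2.18 CPM in pDC. Replicate 1 of pDC stood apart, with 649 CPM of the members against 1326 to 1747 CPM and 1144 CPM of the fibroblast genes against 7.88 to 87.9 CPM. Without it 7 members were higher and 16 lower (20.6% and 21.2% of all genes), and leaving out each library in turn gave 5 to 8 higher and 12 to 16 lower.

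**Figure D5:**
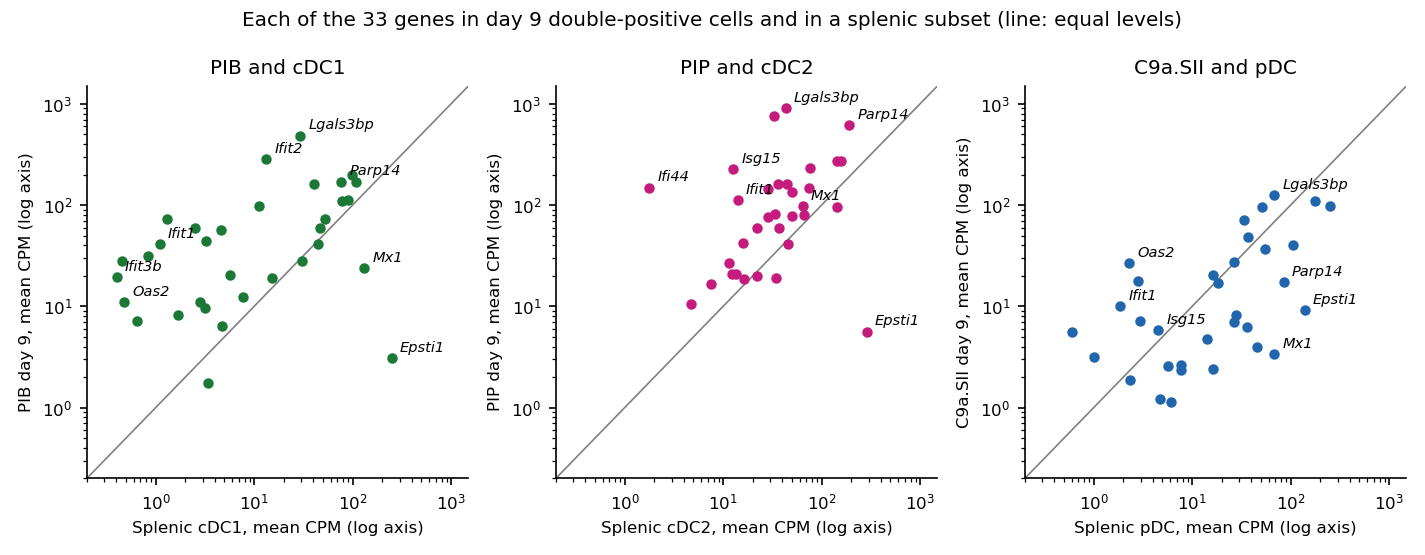
Mean CPM of each member in splenic dendritic cells (horizontal, log axis) and in double-positive day 9 cells (vertical, log axis), for PIB with cDC1, PIP with cDC2 and C9a.SII with pDC; the line marks equal levels. Epsti1 lies far below the line in all 3 panels, and Ifit1, Ifit3 and Ifit3b lie above it.

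The other genes of the pathway moved less uniformly. Among 11 interferon genes, Ifnb1 alone was high enough to be tested in PIB and PIP. It had 14.999, 19.7, 15.4 and 19.1 CPM in PIP on day 9, 0.773 to 2.23 CPM in PIB and 0 to 0.276 CPM in C9a MEFs. PIP lay above PIB and PIB above the MEFs, where it was at or below the level of 3 counts, so that it entered the tests through the induced cells alone. In C9a.SII it had 0.216 to 1.74 CPM and was not tested. Of 7 receptor and kinase genes, 2 rose in PIP, 3 in PIB and 3 in C9a.SII on day 9, and none fell. Over all genes tested, 15.2% rose in PIP, 10.4% in PIB and 10.5% in C9a.SII, and 14.5%, 11.4% and 10.9% fell. These lists are short, so their counts here and below are a description. Ifngr2 rose in each set (1.31 ± 0.07, 1.81 ± 0.06 and 1.38 ± 0.07). Ifnar1 and Ifnar2, the type I receptor, passed the threshold in none of the 3 (0.17 ± 0.08 and -0.66 ± 0.10 in C9a.SII).

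Of the 7 transcription factor genes, 3 rose in PIP, 2 in PIB and 1 in C9a.SII, and none fell. Over all genes 15.2%, 10.4% and 10.5% rose, so that the count in C9a.SII was near that share. In C9a.SII 10.9% of all genes fell. Irf5 rose in all 3 (4.97 ± 0.08, 4.72 ± 0.10 and 4.68 ± 0.10). Irf9 had -0.58 ± 0.09 and Irf7 -0.86 ± 0.14 in C9a.SII, both short of 2-fold. Among the nucleic acid sensors and adaptors, 5 of 9 tested fell in C9a.SII and 1 rose. Zbp1 (-3.98 ± 0.11), Ddx58 (-3.26 ± 0.09), Ifih1 (-3.15 ± 0.23), Tlr3 (-2.72 ± 0.34) and Dhx58 (-2.55 ± 0.14) fell. Tlr9, which encodes a DNA sensor, rose (5.60 ± 0.47). Ddx58, which encodes RIG-I, also fell in PIB (-1.51 ± 0.06) and PIP (-1.14 ± 0.05), while Zbp1 rose in PIP (1.58 ± 0.07). Of the 4 negative regulators, 2 rose in C9a.SII (Socs1 by 1.72 ± 0.19 and Ptpn6 by 4.39 ± 0.50), 2 in PIB and 1 in PIP.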

How the data were processed

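The bulk RNA-seq libraries were used as deposited: whole-number counts per Ensembl gene. Per the labels' protocols, RNA of 5000 sorted cells per extraction was made into libraries with the SMARTer stranded total RNA pico kit with 13 to 14 PCR cycles. Per the submitters' processing notes the build was mm10 and the tools STAR 2.7.9a and Salmon 1.10.1. The counting tool, its strand setting and the annotation's release are not given in the sources used here, so overlapping genes and near copies may share reads. Of the identifiers, 52029 were named from GENCODE M21; the 4981 without a name stayed in the totals.

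CPM are counts scaled so that every library has the same total. Each comparison used edgeR 4.0.16 (R 4.3.3, limma 3.58.1) on the groups compared, with TMM scaling, the filterByExpr filter and the quasi-likelihood F test (robust), adjusted by Benjamini-Hochberg over all genes tested. Calls needed an adjusted p below 0.05 and a 2-fold or larger change. Standard errors are the log2 change divided by the square root of F. The scripts were tested on simulated data. Groups came from the labels. The 33 members, the pathway and marker lists and the comparisons were chosen with earlier results of these data known. Named were, per comparison and direction, up to 4 called members of largest change with no overlap between libraries, and members against the majority; others were chosen after their values were seen. The 3 libraries that contradict their labels entered only the fit over all groups. Within groups, 266 pairs of libraries were compared, and none agreed within sampling noise (chi-square per degree of freedom at least 2.88, median 32.1).

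The labels give replicate numbers no meaning; deviations of same-numbered libraries from their group means correlated above 0.1 in every pair only for hCD2.SII day 9 against MEFs (3 pairs, 0.110 to 0.220).

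Alternatives were no low-count filter, DESeq2 1.42.0 size factors, the DESeq2 Wald test, leaving out libraries under 2000000 counts, a replicate block, 1 fit over all groups, and leaving out each library in turn. Promoter windows are RefSeq's, GRCm38.p6; shared 100-base words are between GENCODE M21 transcripts. Figures and sums were made with Python 3.11.15, pandas 2.3.3 and matplotlib 3.10.9. PCR reads carry no molecular identifiers, so the limit of 3 counts covers counting error only. One pathway gene is not reported here.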

Additional observations from a re-analysis of the deposited data

Results flagged for a closer look

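Single libraries stood far from the rest of their group, by Dixon's gap, in 11 of 89 tests of 1 quantity in 1 group, where chance gives about 1 in 20. Groups of 3 libraries were not tested, so double-positive hCD2.SII day 9 replicate 1 and PIP day 3 replicate 3 could not be flagged. In the summed CPM of the 33 members these were PIB day 6 tdTomato+ replicate 4 (6448, others 2830 to 2997), PIP day 3 tdTomato+ replicate 5 (1016, others 6079 to 6257) and C9a.SII day 6 tdTomato+ replicate 5 (3528, others 908 to 1330), the 3 libraries whose transduced factors contradict their label. Others were PIP day 6 double-positive replicate 4 (4108), C9a.SII day 3 CD45+ replicate 5 (1928, others 1248 to 1414), C9a.SII day 9 double-positive replicate 1 (615.6, others 900.6 to 944.7, at the lowest depth of all libraries) and hCD2.SII day 6 CD45+ replicate 4 (693.3, others 1733 to 1943).

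In single genes the same was seen in 4 tests: Ifit1 in PIP day 9 double-positive replicate 3 (92.36 CPM, others 115.4 to 119.4), Ifit1 in C9a.SII day 9 double-positive replicate 3 (22.26, others 4.359 to 7.347), Mx1 in C9a.SII day 9 double-positive replicate 1 (6.975, others 1.714 to 2.568) and Epsti1 in hCD2.SII day 3 double-positive replicate 3 (5.678, others 3.67 to 3.997). The part of depth or cell content in these was not tested.

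In PIB, double-positive cells of day 9 were compared directly with those of day 3 by edgeR, without MEFs. The log2 change was -1.079 for Oas2, -1.182 for Oas3, -1.751 for Oasl1 and -1.095 for Isg15. These were 4 of the 33 members, beside 8.47% of all genes that fell. Oas2, Oas3 and Isg15 lost the call in the fit over all groups.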

How the results depend on the processing

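Of 287 member results that passed the threshold, 238 kept the call in every setting run and 0 reversed. Of 50 counts of members, 33 stayed within 1.5 times of their value in every setting. Where the results above give no share of all genes for a setting, its counts here and below only describe how the member calls moved. Outside leaving out 1 library, these moved. In 1 fit over all groups, members lower were 0 between MEF lines, 1 in PIP day 3, 26 in hCD2.SII day 9 against MEFs, 1 from day 3 to 9 in PIB, 18 in hCD2.SII double-positive against reporter-positive cells, and 9 in C9a.SII against pDC. The DESeq2 Wald test gave 13 lower in hCD2.SII day 9, 9 lower in hCD2.SII double-positive against reporter-positive cells, and 1 higher from day 3 to 9 in C9a.SII. With no low-count filter, 2 fell from day 3 to 9 in PIB, 1 rose in C9a.SII and 1 in hCD2.SII, 2 were lower in hCD2.SII double-positive cells, and 4 were higher in C9a.SII than in pDC. Without libraries under 2000000 counts, 1 rose from day 3 to 9 in C9a.SII.

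Leaving out 1 library at a time gave these ranges: PIP day 3 higher 7 to 15; hCD2.SII day 9 lower 1 to 27; from day 3 to 9, PIP lower 0 to 1, C9a.SII higher 0 to 1 and lower 0 to 6, and hCD2.SII lower 0 to 22. For hCD2.SII double-positive against reporter-positive cells they were higher 0 to 1 and lower 0 to 28, and for the interaction, day 3 lower 0 to 1, day 9 higher 0 to 15 and lower 0 to 1.

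No comparison but hCD2.SII day 9 against MEFs had same-numbered libraries that deviated together. With the replicate block, 0 members were lower in hCD2.SII double-positive against reporter-positive cells, against 1 without it, and 4 fell in hCD2.SII day 9 against MEFs, against 3.

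Depth limits levels under 2.62 CPM in the shallowest library.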
